A study of Mus musculus with 2 samples.

Results

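Ery 5 is a subcluster of late erythroblasts, the nucleated red cell precursors that have filled with globin transcripts, from the mouse liver at E12.5. Its members are the cells that carry the name Ery 5 in the cell table the authors deposited, which merges clusters 2 and 17 of their clustering of both libraries together. They numbered 1087 of 10537 kept cells. The study profiled 1 liver of a wild-type C57BL/6 embryo (C57BL/6J in the methods of the study) by droplet single-cell RNA-seq (10x Genomics Chromium). Flow sorting had cleared the suspension of debris, dead cells and doublets, and the cells were then loaded as 2 technical replicates, called library 1 and library 2 here. Both libraries share this genotype, strain, age and organ, none was treated, and the sex of the embryo was not used. No difference between the libraries, or between subclusters within them, could be tested across animals, so values below describe these libraries and carry no p-value.

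Erythroblasts divide a limited number of times while they accumulate hemoglobin, and the last of these divisions is followed by withdrawal from the cell cycle, condensation of the nucleus and its expulsion. On the way, transcripts for ribosomes and mitochondria become scarce, and ubiquitin and autophagy pathways clear proteins and organelles. The foetal liver is the main site of definitive red cell formation at midgestation, and the cells of this lineage make up most of the organ at this age.

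In Ery 5, the genes of G2 and mitosis together took a larger share of the UMIs outside the adult globins than in the other erythroid subclusters (Ery 1 to Ery 6), while ribosomal protein transcripts were already at the low level seen in Ery 6. The 30 genes of a G2 and mitosis list together took 3.02% and 2.79% of the UMIs outside the adult globins in libraries 1 and 2, against 1.51% and 1.38% in Ery 4 and 0.806% and 0.739% in Ery 6. The 30 genes of an S phase list took 0.531% and 0.559%, between 0.789% and 0.781% in Ery 4 and 0.179% and 0.175% in Ery 6. Ribosomal protein genes took 6.18% and 7.86%, against 15.5% and 19.8% in Ery 4 and 7.82% and 9.28% in Ery 6. Genes that mark the last erythroblast step in Ery 6, such as Xpo7, a nuclear export receptor, were still low in Ery 5, at 59.9 and 24.8 counts per 1000000 UMIs (CPM) against 691 and 351. Here and below, a pair of values gives library 1 first and library 2 second.

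**Figure D1:**
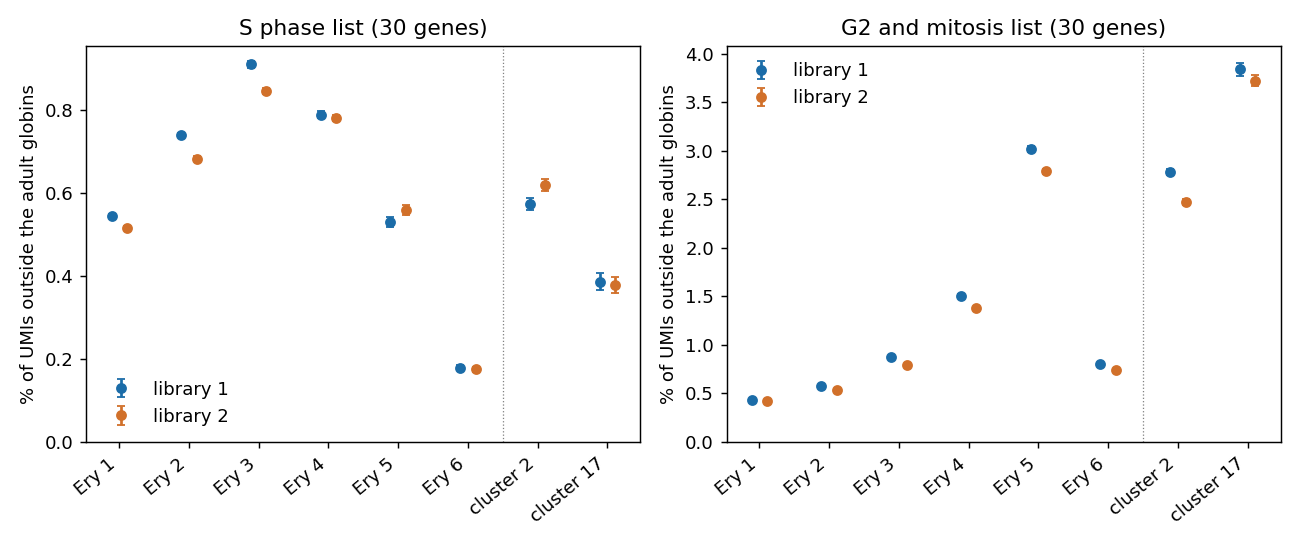
Summed share of the S phase list (left) and of the G2 and mitosis list (right) in percent of UMIs outside the 4 adult globin genes, for Ery 1 to Ery 6 and, right of the dotted line, for clusters 2 and 17 that make up Ery 5. Points are libraries and bars are exact 95% intervals that cover counting error only. Ery 5 lies highest of the 6 subclusters for G2 and mitosis in both libraries, and cluster 17 lies above cluster 2.

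A UMI marks 1 captured RNA molecule, and CPM is the count of a gene per 1000000 UMIs, summed over the cells of a subcluster in 1 library. Intervals beside CPM are exact Poisson 95% intervals, those beside ratios come from an exact binomial test of the counts, and those beside shares are Clopper-Pearson intervals. All of them cover counting error only. A gene was called higher or lower where its CPM ratio reached 1.5 in the same direction in both libraries and it had at least 10 CPM in either subcluster of each library. A gene under 10 CPM in 1 subcluster of a library was compared there only through the other subcluster, so the minimum fixed its direction. The subclusters were themselves drawn from these genes in these cells, so every contrast between them is a description and no test.

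The libraries stood apart and were therefore never pooled for a level. The 5480 kept cells of library 1 held 51969226 UMIs and the 5057 of library 2 held 62738015. The shallowest kept cell had 504 UMIs in library 1 and 4387 in library 2, and 61 Ery 5 cells of library 1 fell under the library 2 minimum. The 4 adult globins, the α genes Hba-a1 and Hba-a2 and the β genes Hbb-bs and Hbb-bt, took 50.4% and 72.9% of the UMIs of Ery 5, and CPM counts these UMIs in its total. The libraries shared 31 cell barcodes among kept cells, and 1 of these was Ery 5 in both. No doublets were removed beyond the sort. RNA in barcodes of 1 to 50 UMIs, taken as free RNA, was 19.3% and 37.9% adult globin, so globin UMIs in any cell include an unknown part from this source.

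Library 1 held 497 Ery 5 cells, or 9.07% of its kept cells (8.32 to 9.86), and library 2 held 590, or 11.7% (10.8 to 12.6). Among cells of at least 4387 UMIs, the minimum of library 2, the share in library 1 was 10.4%. Cluster 17 supplied 126 and 158 of these cells, 25.4% (21.6 to 29.4) and 26.8% (23.2 to 30.5), and cluster 2 the other 371 and 432. An Ery 5 cell held a median of 5840 and 9749 UMIs, close to 5790 and 8995 in Ery 4 and above 4378 and 7882 in Ery 6. Outside the adult globins the medians were 2848 and 2656 UMIs in Ery 5, 3575 and 3863 in Ery 4 and 1843 and 1671 in Ery 6. The median number of genes detected was 1164 and 1098, against 1375 and 1409 in Ery 4 and 762 and 710 in Ery 6. After each cell was thinned to 2300 UMIs the medians were 626 and 400 genes in Ery 5, 756 and 562 in Ery 4 and 500 and 300 in Ery 6. The order was the same at equal total UMIs, where UMIs outside the adult globins still differed in that order. The thinning left out 3 Ery 5, 133 Ery 4 and 20 Ery 6 cells of library 1 and none of library 2. Mitochondrial transcripts made up a median of 1.57% and 0.930% of the UMIs of an Ery 5 cell, 2.88% and 1.94% in Ery 4 and 1.39% and 0.743% in Ery 6.

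The defining markers of late erythroblasts were abundant in Ery 5 and match its label. Hbb-bs, an adult β globin, took 23.7% of the UMIs in library 1 and 30.3% in library 2, against 16.2% and 22.9% in Ery 4 and 26.4% and 31.7% in Ery 6. Hba-a1, an adult α globin, took 8.62% and 14.7%, again between 6.38% and 12.1% in Ery 4 and 9.76% and 15.6% in Ery 6. Slc4a1, the band 3 anion exchanger of the red cell membrane, measured 1872 CPM (95% interval 1823 to 1922) in the first library and 954 (929.6 to 979.8) in the second. Its level was 1565 and 882 CPM in Ery 4 and 1509 and 733 CPM in Ery 6, and it passed the 1.5-fold rule against neither. The 4 adult globins together took 35.7% and 56.9% of the UMIs in Ery 4, 50.4% and 72.9% in Ery 5 and 57% and 77.9% in Ery 6. In Ery 3 to Ery 6 the β chains had more UMIs than the α chains, with a β to α ratio of 2.54 and 1.84 in Ery 5, 2.48 and 1.82 in Ery 4 and 2.45 and 1.78 in Ery 6. The ratio differed more between libraries than between these subclusters.

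Markers of other cell types in the liver were far under their level in free RNA. The 12 macrophage markers summed to 26.7 and 13 CPM in Ery 5 against 994 and 371 in free RNA, with 5 and 7 of them at 0, among these the macrophage marker Adgre1 in both libraries. Their most abundant member was Lyz2, a lysozyme of myeloid cells, at 22.6 and 11.6 CPM. Sums for the other lists in Ery 5 were 69.5 and 24.9 CPM for 9 hepatoblast markers (highest Afp), 32.9 and 16.4 for 7 megakaryocyte markers (highest Pf4), 5.82 and 2.90 for 7 endothelial markers (highest Egfl7), 165 and 78.4 for 10 granulocyte markers (highest S100a9) and 13 and 5.63 for 7 stem and progenitor markers (highest Spi1). The endothelial list had 4 of 7 genes at 0 in library 1 and 2 of 7 in library 2, the granulocyte list 1 of 10 and 0, and the stem and progenitor list 1 of 7 in each. Every one of these sums was lower than in the free RNA of the same library, and each was within 2-fold of its sum in Ery 4 and in Ery 6.

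The embryonic globins Hba-x, Hbb-y and Hbb-bh1, which primitive yolk sac erythroblasts use, were present at a low level. They summed to 7752 and 4245 CPM in Ery 5, 6422 and 3188 in Ery 4 and 10710.1 and 5910.2 in Ery 6, against 15252 and 14009 in free RNA. Most of this signal sat in few cells: 77 and 69 Ery 5 cells had at least 1% of their UMIs in embryonic globins, 15.5% (12.4 to 19) and 11.7% (9.21 to 14.6) of the subcluster, and carried 82.5% and 76.2% of its embryonic globin UMIs. These cells had a median of 6498 and 10232 UMIs against 5746 and 9720 in the others. With them left out the G2 and mitosis share of Ery 5 was 3.08% and 2.82%, as large as with them. In library 1, 1 Ery 5 cell had under 30% of its UMIs in adult globins.

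**Figure D2:**
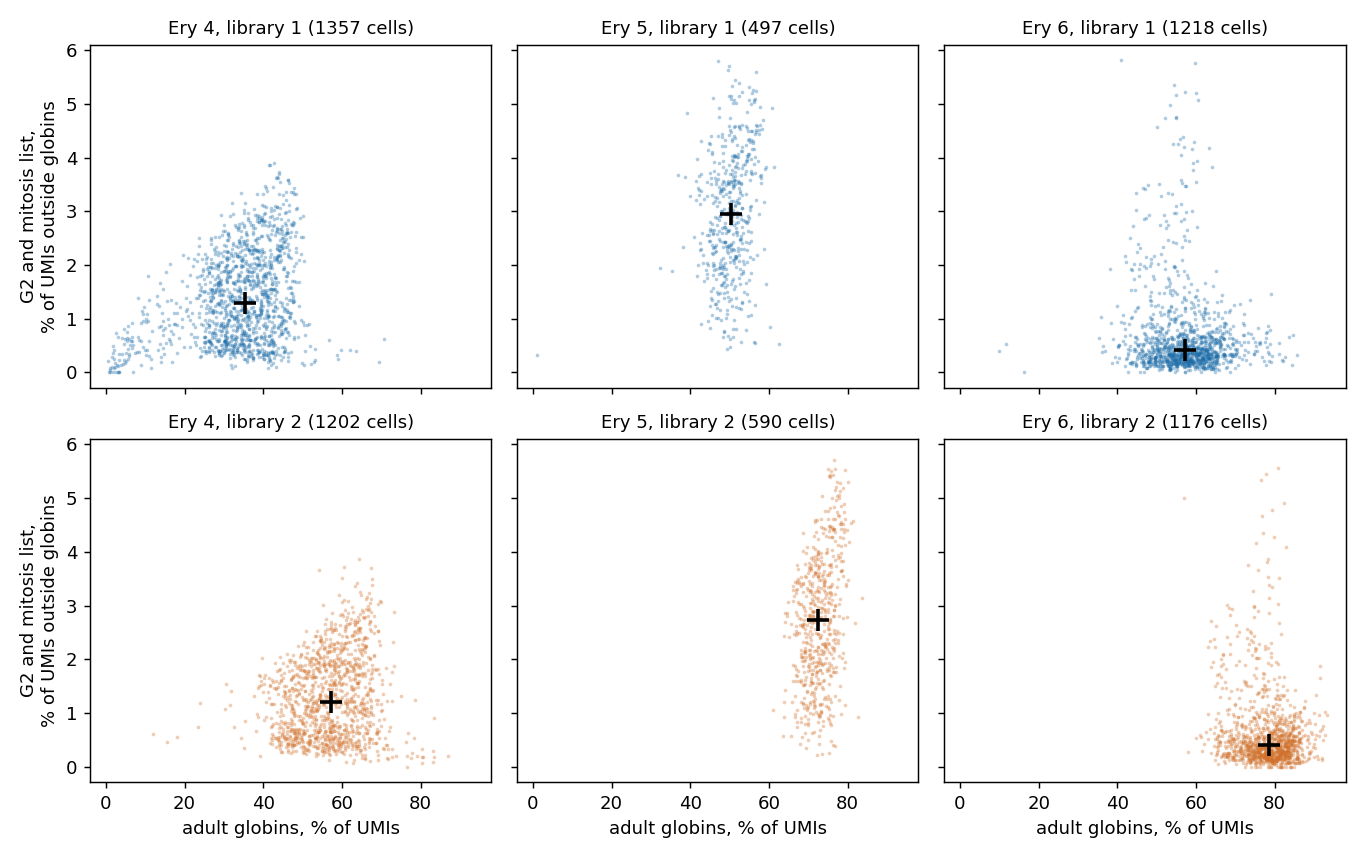
Each point is 1 cell of Ery 4, Ery 5 or Ery 6 (columns) in library 1 (top) or library 2 (bottom), with the share of its UMIs in adult globins on the x axis and the share of its other UMIs in the G2 and mitosis list on the y axis. Crosses mark medians. The median globin share of Ery 5 lies between those of Ery 4 and Ery 6, its band overlaps that of Ery 6, and most of its cells lie above the bulk of Ery 6.

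Ery 5 was first compared with Ery 6, the subcluster with the most adult globin. Of 2921 genes compared, 1255 (43% of them) were higher in Ery 5 and 211 (7.22%) were lower. The median log2 ratio over all genes compared was 0.52, so most genes held a larger part of the UMIs in Ery 5. When CPM was taken over UMIs outside the adult globins, 969 genes (33.2%) were higher and 335 (11.5%) lower and the median was 0.27, which puts 74.3% of the calls on the higher side in place of 85.6%. The smaller counts, 969 and 211, lie within the larger ones by arithmetic, since the change of scale multiplies every ratio of a library by the same factor. The direction was the same in both libraries for 2681 genes and opposite for 240.

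All 30 genes of the G2 and mitosis list were higher in Ery 5 than in Ery 6, against the background of 43%, with a median log2 ratio of 2.38 beside 0.52 for all genes. Outside the adult globins the median was 2.13 and all 30 were again higher. Top2a, the topoisomerase that untangles chromosomes before they separate, measured 641 CPM (95% interval 612 to 671) in the first library and 408 (392 to 425) in the second. In Ery 6 it was 62.2 and 31.6 CPM, which made Ery 5 higher by 10.3-fold (9.19 to 11.6) and 12.9-fold (11.5 to 14.6). Aurkb, the kinase of the chromosomal passenger complex, was at 156 and 72.2 CPM in Ery 5 and 14.8 and 6.16 CPM in Ery 6, a ratio of 10.6-fold (8.38 to 13.5) and 11.7-fold (8.95 to 15.6). Prc1, which bundles the microtubules of the central spindle, was at 225 and 129 CPM against 23.5 and 12.6, a ratio of 9.54-fold (7.91 to 11.6) and 10.2-fold (8.45 to 12.46). In all these genes the lower of the Ery 5 values exceeded the higher of the Ery 6 values. Ube2c, the ubiquitin-conjugating enzyme of the anaphase-promoting complex, was the most abundant member of the list and measured 4275 CPM (95% interval 4200.4 to 4351) in the first library and 1997 (1961 to 2034) in the second in Ery 5. Its level was 1111 and 488 CPM in Ery 6, lower by 3.85-fold (3.73 to 3.97) and 4.09-fold (3.96 to 4.24). The list summed to 14984 and 7552 CPM in Ery 5, of which Ube2c was thus the largest part. Of the 30, 9 were under 10 CPM in Ery 6 in at least 1 library and were compared there only through Ery 5, so their direction was fixed by the minimum. The smallest ratio in the list was that of Ccnb2, a B-type cyclin, at 2.14-fold and 2.29-fold.

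Top2a, Aurkb and Prc1 were among the 12 genes named as higher, and the others follow. Fbxo5, which holds back the anaphase-promoting complex until mitosis, was at 306 and 152 CPM in Ery 5 and 15.8 and 10.3 CPM in Ery 6, a ratio of 19.4-fold (15.6 to 24.3) and 14.7-fold (12 to 18.3). Ccnf, the cyclin of an ubiquitin ligase, was at 141 and 72.2 CPM against 9.66 and 6.26, a ratio of 14.6-fold (11 to 19.7) and 11.5-fold (8.82 to 15.3). Mxd3, a Max-binding factor, ranked first by the smaller of its ratios in the libraries, with 106 and 53.8 CPM against 6.68 and 3.33, or 15.8-fold (11.3 to 22.8) and 16.1-fold (11.3 to 23.9). Pbk, a mitotic kinase, was at 129 and 65.4 CPM against 6.85 and 4.74, and Neil3, a DNA glycosylase, at 116 and 57.9 against 11.1 and 5.15. Cdkn2c, the p18 inhibitor of CDK4 and CDK6, was at 153 and 67.3 CPM in Ery 5 and 15.5 and 6.76 CPM in Ery 6, a ratio of 9.90-fold (7.86 to 12.6) and 9.95-fold (7.66 to 13.1). H2afx, the H2A variant that is phosphorylated at DNA breaks, was at 1171 and 555 CPM against 123 and 56, a ratio of 9.50-fold (8.75 to 10.3) and 9.91-fold (9.05 to 10.9). Hist1h1b, a linker histone made with replication, was at 348 and 192 CPM against 38.3 and 20.9. Mxd3, Pbk and Ccnf were under 10 CPM in Ery 6 in both libraries, and Aurkb, Neil3 and Cdkn2c in library 2, so they were compared only because they are high in Ery 5, and the minimum fixed their direction. The named gene Hist2h2bb is carried by more than 1 gene identifier, and its reads may be split or shared among near-identical histone genes, so its values are left out. Of the histone list, 13 of 15 genes compared were higher, 4 of them compared only through Ery 5 in at least 1 library, and none lower by CPM, and 12 were higher outside the adult globins, beside 43% and 33.2% of all genes, with a median log2 ratio by CPM of 1.87. Reads of histone genes other than the variants are uncertain for the same reason.

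Promoters of some mitotic genes are shown because many of this group hold the same short motifs, with the Hbb-bs promoter beside them. The mitotic promoters shown all hold both CCAAT and TTTGAA, and Ube2c and Cdc20 are not among the 12 genes named as higher. Other genes hold neither motif in the 300 bases searched. These include the named genes Mxd3, Neil3 and Cdkn2c, and Birc5, Nusap1 and Tacc3 of the G2 and mitosis list. Each line gives 150 bases before to 30 bases after the transcription start from RefSeq on GRCm38.p6, 5′ to 3′ on the strand of the gene. Capitals mark CCAAT and TTTGAA on either strand (the reverse complements are ATTGG and TTCAAA) and, in Hbb-bs, CCACACCC. CCAAT is the box that NF-Y binds, TTTGAA is the core of the cell cycle genes homology region, and CCACACCC is the CACCC box that erythroid KLF factors bind. The windows are Ube2c at chr2:164769779-164769958 on the plus strand, and Top2a at chr11:99024160-99024339, Fbxo5 at chr10:5805436-5805615, Cdc20 at chr4:118437314-118437493 and Hbb-bs at chr7:103827899-103828078, all on the minus strand.
Ube2c: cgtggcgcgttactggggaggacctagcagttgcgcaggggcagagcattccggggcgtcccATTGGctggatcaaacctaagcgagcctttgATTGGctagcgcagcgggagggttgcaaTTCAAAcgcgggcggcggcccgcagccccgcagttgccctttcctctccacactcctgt
Top2a: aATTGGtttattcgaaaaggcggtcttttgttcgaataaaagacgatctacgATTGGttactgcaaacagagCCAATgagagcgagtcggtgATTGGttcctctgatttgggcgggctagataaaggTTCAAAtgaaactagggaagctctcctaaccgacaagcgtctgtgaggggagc
Fbxo5: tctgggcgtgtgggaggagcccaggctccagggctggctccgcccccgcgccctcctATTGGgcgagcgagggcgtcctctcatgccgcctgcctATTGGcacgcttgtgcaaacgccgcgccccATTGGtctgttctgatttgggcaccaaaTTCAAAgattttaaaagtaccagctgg
Cdc20: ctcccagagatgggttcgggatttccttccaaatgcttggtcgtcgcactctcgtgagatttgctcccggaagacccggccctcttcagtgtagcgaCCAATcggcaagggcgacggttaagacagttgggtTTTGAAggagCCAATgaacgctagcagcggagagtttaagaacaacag
Hbb-bs: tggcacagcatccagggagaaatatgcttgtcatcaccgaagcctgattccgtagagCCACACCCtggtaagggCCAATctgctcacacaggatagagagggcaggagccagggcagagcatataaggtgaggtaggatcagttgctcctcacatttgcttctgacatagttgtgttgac

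Motifs were counted on both strands in windows from 250 bases before to 50 after the start, 300 bases in all, and no motif searched contains another. Of the 30 genes in the G2 and mitosis list, 26 had a window, and CCAAT was in 21 (80.8%) and TTTGAA in 19 (73.1%). Over all 27025 promoters the shares were 37.9% for CCAAT and 18.1% for TTTGAA. In the S phase list, 14 of 25 windows held CCAAT (56%) and 3 held TTTGAA (12%). Of the 12 named genes that were higher in Ery 5 than in Ery 6, 7 had a window, and 4 of these held CCAAT and 4 held TTTGAA. Of the 12 named genes that were lower in Ery 5 than in Ery 6, 8 had a window, and of these 2 held CCAAT and 0 held TTTGAA. The letters that GATA1 favours, AGATAA or TGATAA, were in 9 of 20 windows of the red cell membrane list (45%), 2 of 26 of the G2 and mitosis list (7.69%) and 19% of all promoters. TATAAA was in 14.2% of all promoters and CCACACCC in 3.57%. A match is a description of letters in a window and not a binding site.

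**Figure D3:**
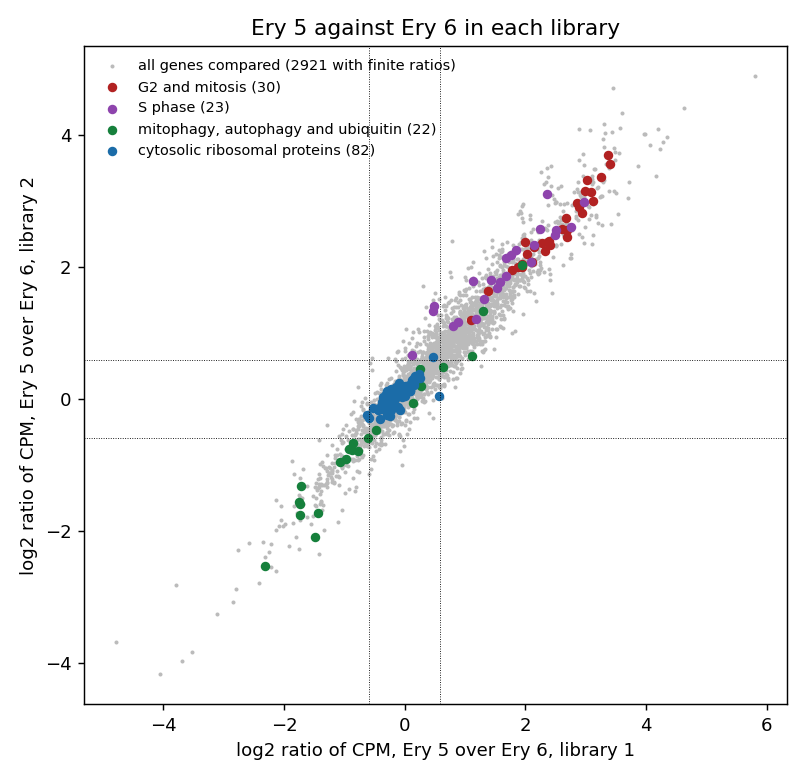
Log2 ratio of CPM, Ery 5 over Ery 6, in library 1 (x axis) and library 2 (y axis) for the 2921 genes compared (grey), with 4 lists in colour and dotted lines at a ratio of 1.5 in either direction. The 30 G2 and mitosis genes all lie past the line at upper right in both libraries, most ribosomal protein genes lie near 0, and 14 of 22 genes of the mitophagy, autophagy and ubiquitin list lie past the line at lower left.

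Genes of DNA replication stood between the neighbours of Ery 5. Of 23 S phase genes compared with Ery 6, 20 were higher in Ery 5 and none lower on either scale, beside 43% of all genes higher by CPM and 33.2% outside the adult globins, with a median log2 ratio of 1.77, and 1.52 outside the adult globins. Of these 23, 13 were under 10 CPM in Ery 6 in at least 1 library and were compared there only through Ery 5, 11 of them among the 20, and the minimum fixed their direction. Pcna, the sliding clamp of DNA polymerase, was at 103 CPM (95% interval 91.7 to 115) in the first library and 59.6 (53.5 to 66.2) in the second in Ery 5 and at 30.6 and 13.2 CPM in Ery 6, a ratio of 3.37-fold (2.79 to 4.09) and 4.51-fold (3.68 to 5.55). Ccne2, an E-type cyclin, was at 37 and 23.2 CPM against 6.50 and 3.94, and Rrm2, the small subunit of ribonucleotide reductase, at 1041 and 571 against 243 and 136. Mcm5, a subunit of the replicative helicase, and Dut, the dUTPase, reached the fold in library 2 alone, Mcm5 with ratios of 1.39-fold (1.02 to 1.89) and 2.51-fold (1.87 to 3.36).

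The cells of Ery 5 that carried these transcripts were counted after each cell was thinned to 2300 UMIs, which sets total UMIs equal but not those outside the adult globins. The median Ery 5 cell then had 34 and 17 UMIs from the G2 and mitosis list, against 20 and 12 in Ery 4 and 4 and 2 in Ery 6. A Top2a UMI was found in 71.5% and 59.3% of Ery 5 cells, 63.4% and 54.8% of Ery 4 cells and 8.85% and 3.66% of Ery 6 cells. Ccnb1, the B-type cyclin that drives entry to mitosis, was found in 63.6% and 44.4% of Ery 5 cells, 41.3% and 34.6% of Ery 4 cells and 16.1% and 11.2% of Ery 6 cells. Cdc20, the activator of the anaphase-promoting complex, was found in 33.8% and 20.7% of Ery 5 cells, 26.4% and 18.8% of Ery 4 cells and 6.76% and 3.32% of Ery 6 cells. For Xpo7 the share was highest in Ery 6, with 13.2% and 4.58% of Ery 5 cells, 5.96% and 4.33% of Ery 4 cells and 64% and 45.8% of Ery 6 cells. Free RNA had the G2 and mitosis list at 0.704% and 0.807% of its UMIs outside the adult globins, near the level of Ery 6 and well under that of Ery 5. Some other lists were higher in free RNA than in Ery 5 by CPM. The S phase list summed to 4286 and 3717 CPM there against 2637 and 1514 in Ery 5. Ribosomal protein genes summed to 180249 and 129726 against 30681 and 21296, and nuclear respiratory chain genes to 19575 and 17188 against 9339 and 6169. These sums also reflect the smaller globin share of free RNA. The part of Ery 5 UMIs that came from free RNA was not tested.

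A small set of genes was lower in Ery 5 than in Ery 6. Xpo7 (exportin 7, chr14:70654246-70766628), a nuclear export receptor used in terminal erythroid maturation, measured 59.9 CPM (95% interval 51.4 to 69.5) in the first library and 24.8 (20.9 to 29.1) in the second in Ery 5 and 691 CPM (95% interval 669.8 to 713) in the first library and 351 (339 to 363) in the second in Ery 6. Ery 6 was thus higher by 11.5-fold (9.92 to 13.5) and 14.2-fold (12 to 16.9). Tmcc2 (chr1:132356315-132391281), a transmembrane coiled-coil protein, was at 438 and 224 CPM in Ery 5 and 3051 and 1645 CPM in Ery 6, higher in Ery 6 by 6.97-fold (6.58 to 7.38) and 7.33-fold (6.93 to 7.76). Bpgm, which makes the bisphosphoglycerate that tunes oxygen release, was at 100.3 and 44.7 CPM against 716 and 375 in Ery 6, higher there by 7.14-fold (6.34 to 8.07) and 8.38-fold (7.39 to 9.54). For each of these genes, both Ery 5 values were under both Ery 6 values. Tcp11l2 ranked first by the smaller of its ratios in the libraries, with 36.3 and 14 CPM in Ery 5 and 465 and 218 CPM in Ery 6. Ube2h, an ubiquitin-conjugating enzyme induced late in erythroid maturation, was at 22.9 and 10.8 CPM against 114 and 62.3, higher in Ery 6 by 4.97-fold (3.86 to 6.49) and 5.79-fold (4.46 to 7.63). The other named genes that were lower in Ery 5 were Ncf4, a subunit of the phagocyte oxidase (29.1 and 19.3 CPM against 144 and 101), Lpin2, a phosphatidate phosphatase (27.7 and 14.7 against 129 and 67.1), and Dstn, an actin-severing protein (25 and 10.6 against 109 and 64.5). Slfn14, a ribosome-associated nuclease, was at 61.3 and 31.2 CPM against 230.0 and 147, and Tbcel, a tubulin-binding cofactor, at 70.9 and 43.5 against 287 and 165. Fam213a and Prr13 completed the set, with Prr13 at 113 and 60.4 CPM against 482 and 230.0. Free RNA held Xpo7 at 99.3 and 66.8 CPM, above its level in Ery 5 and below that in Ery 6.

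**Figure D4:**
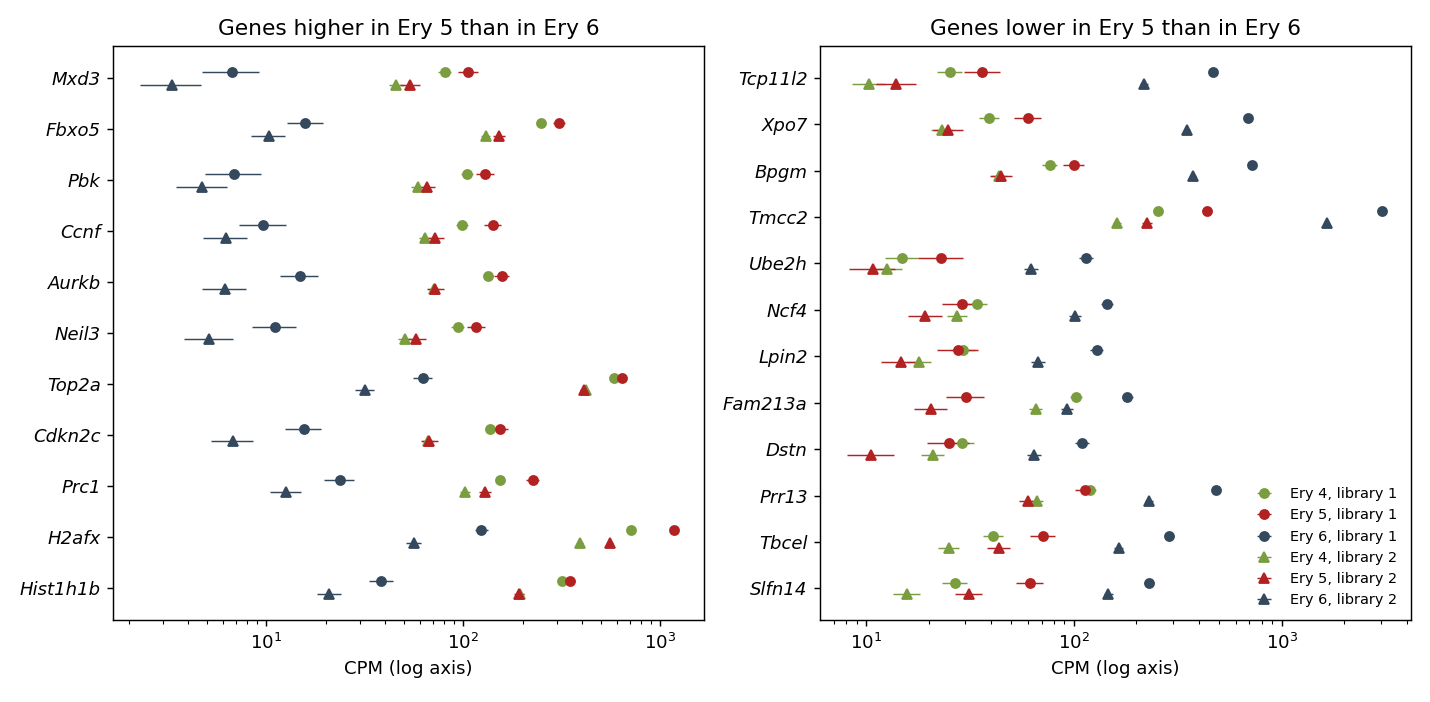
CPM on a log axis of named genes that were higher (left) or lower (right) in Ery 5 than in Ery 6, with Ery 4 beside them. Circles are library 1 and triangles library 2, and bars are exact Poisson 95% intervals. For the genes on the left Ery 5 lies with Ery 4 and apart from Ery 6, and for most genes on the right the same holds at a low level.

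The mitophagy, autophagy and ubiquitin list was the one in which most genes were lower. Of 22 genes compared, 14 were lower in Ery 5 than in Ery 6 and 3 higher, beside 7.22% and 43% of all genes, and the median log2 ratio was -0.80, or -1.05 outside the adult globins. Bnip3l (Nix), the mitophagy receptor that clears mitochondria from reticulocytes, was at 522 CPM (95% interval 497 to 549) in the first library and 269.7 (257 to 283) in the second in Ery 5 and at 1103 and 522 CPM in Ery 6, higher in Ery 6 by 2.11-fold (2.00 to 2.23) and 1.94-fold (1.83 to 2.05). Ube2o, an ubiquitin ligase that remodels the reticulocyte proteome, was at 55.8 and 36.2 CPM against 183 and 90.2. Sqstm1 (p62), an autophagy receptor, was at 28.8 and 14.2 CPM against 95.2 and 47.9, and Map1lc3b, an LC3 protein of the autophagosome membrane, at 252 and 144 against 491 and 271. Among the higher were Ube2c, which is also in the G2 and mitosis list, and Bnip3 (34.6 and 13.7 CPM against 16 and 8.68). Of the members called, 2 were under 10 CPM in Ery 5 in at least 1 library and were compared there only through Ery 6, and 1 likewise only through Ery 5, so the minimum fixed their direction.

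Chromatin and nuclear genes were mostly higher. In the chromatin condensation and enucleation list, 11 of 14 genes compared were higher in Ery 5 than in Ery 6 and 1, Xpo7, was lower, and outside the adult globins 9 were higher, beside 43% and 33.2% of all genes. The median log2 ratio was 1.12 by CPM. Lmnb1, the B1 lamin of the nuclear envelope, was at 166 and 74.6 CPM against 27.9 and 11.1 in Ery 6, a ratio of 5.93-fold (4.95 to 7.14) and 6.72-fold (5.44 to 8.36). Hmgb2, a chromatin architectural protein, was at 2244 and 929.9 CPM against 489 and 181, and Lbr, the lamin B receptor, at 672 and 341 against 175 and 96.6. Of 18 erythroid transcription factors compared, 10 were higher and 2 lower, and outside the adult globins 6 and 3, shares near those of all genes. Of the 10, 1 was compared only through Ery 5 in at least 1 library, so the minimum fixed its direction. The median log2 ratio was 0.73 and 0.48 outside the adult globins. Gata1, the master factor of the lineage, was at 244 and 140.2 CPM against 133 and 63.9, and Klf1, which activates adult β globin, at 803 and 453 against 517 and 257. The 2 lower ones were Foxo3, at 83.9 and 58 CPM against 182 and 97.7, and Mxd1, a Max partner that opposes Myc, at 57.5 and 34 against 119 and 62.1. Gfi1b, a repressor needed for red cell formation, was at 102 and 48.5 CPM in Ery 5 and 29 and 16.4 CPM in Ery 6.

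Inhibitors and regulators of cell cycle exit were called in both directions. Of 11 compared, 3 were higher in Ery 5 than in Ery 6, namely Cdkn2c, Cdkn2d and Rb1, and 4 were lower, namely Cdkn1b, Btg1, Gadd45a and Ypel4, beside 43% and 7.22% of all genes. Cdkn2c and Rb1 were compared only through Ery 5 in library 2. Cdkn2d, the p19 inhibitor of CDK4 and CDK6, measured 1132 CPM (95% interval 1094 to 1172) in the first library and 541 (523 to 561) in the second in Ery 5 and 186 and 86.5 CPM in Ery 6, a ratio of 6.09-fold (5.68 to 6.54) and 6.26-fold (5.80 to 6.76). Cdkn1b, the p27 inhibitor of CDK2, was at 19.2 and 10.2 CPM against 29.3 and 16.5, and Gadd45a, a stress-induced growth arrest gene, at 521 and 223 against 1398 and 544. Cdkn1a, the p21 inhibitor, was under the minimum at 1.71 and 0.683 CPM in Ery 5 and was not compared. Rb1, the retinoblastoma protein, was at 53.4 and 29.4 CPM in Ery 5 and 14.6 and 9.79 CPM in Ery 6. The median of the list was 0.10 on the log2 scale, and -0.15 outside the adult globins, so its sign depends on the scale.

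Heme synthesis genes mostly lay within 1.5-fold between Ery 5 and Ery 6. Over all genes 43% were higher and 7.22% lower by CPM, and 33.2% and 11.5% outside the adult globins, and the higher counts of the membrane and iron lists were near or under these shares. Of 14 genes of heme synthesis and mitochondrial iron import, 12 lay within 1.5-fold, 1 was higher (Cpox, the coproporphyrinogen oxidase, 2814 and 1481 CPM against 1710.4 and 863) and 1 lower (Iscu, the scaffold of iron-sulfur clusters, 65.4 and 36.9 against 145 and 72). Alas2, the first enzyme of erythroid heme synthesis, was at 2817 and 1516 CPM in Ery 5 and 3790.0 and 1962 CPM in Ery 6. Of 25 membrane and skeleton genes compared, 8 were higher and 3 lower, with a median log2 ratio of 0.33, under that of all genes, and outside the adult globins 3 were higher and 4 lower. Icam4, the Landsteiner-Wiener adhesion protein of erythroblasts, was among the higher, at 707 and 387 CPM against 277 and 142. The lower ones were Slc2a1 (glucose transporter 1, 896 and 425 CPM against 2489.8 and 1206), Mpp1 (173 and 88.8 against 398 and 189) and Tpm1, a tropomyosin (54.1 and 25.3 against 152 and 76.7). Epor, the erythropoietin receptor, was higher at 189 CPM (95% interval 174 to 205) in the first library and 116 (107 to 125) in the second in Ery 5 against 74.1 and 42.2 CPM in Ery 6, a ratio of 2.55-fold (2.24 to 2.90) and 2.75-fold (2.43 to 3.11). Bcl2l1 (Bcl-xL), the survival protein of late erythroblasts, was lower at 231 and 129 CPM against 454 and 256. Of 10 iron uptake and storage genes compared, 5 were higher, 2 of them compared only through Ery 5 in at least 1 library, and none lower by CPM, and 4 and 1 outside the adult globins, with the ferritin subunits Fth1 and Ftl1 within 1.5-fold.

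Transcripts for protein synthesis and respiration were near the level of Ery 6. None of 82 ribosomal protein genes compared was called in either direction by CPM, beside 43% of all genes higher and 7.22% lower, with a median log2 ratio of -0.042. That median was -0.29 outside the adult globins and 0.24 for mean UMIs per cell, so its sign depends on the scale. Of 73 nuclear genes of the respiratory chain, 2 were higher and none lower by CPM, and none and 6 outside the adult globins, with a median of -0.015 by CPM, -0.27 outside the adult globins and 0.27 for mean UMIs per cell. Of 34 proteasome subunits, 8 were higher and none lower by CPM, and 3 and 1 outside the adult globins, with a CPM median of 0.46, near that of all genes. Among 12 glycolysis genes, 3 were higher and 2 lower by CPM, the latter Slc2a1 and Bpgm, and 1 and 4 outside the adult globins, beside 33.2% and 11.5% of all genes. Of the 3 higher by CPM, 1 was compared only through Ery 5 in at least 1 library, so the minimum fixed its direction. The medians of the heme synthesis, glycolysis, antioxidant and heme breakdown, and nuclear and mitochondrial quality lists against Ery 6 also changed sign between scales. The adult globins were all within 1.5-fold, with a median log2 ratio of -0.14 by CPM, -0.39 against the other UMIs and 0.15 for mean UMIs per cell. No progenitor gene of a list of 12 reached the minimum in either subcluster.

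**Figure D5:**
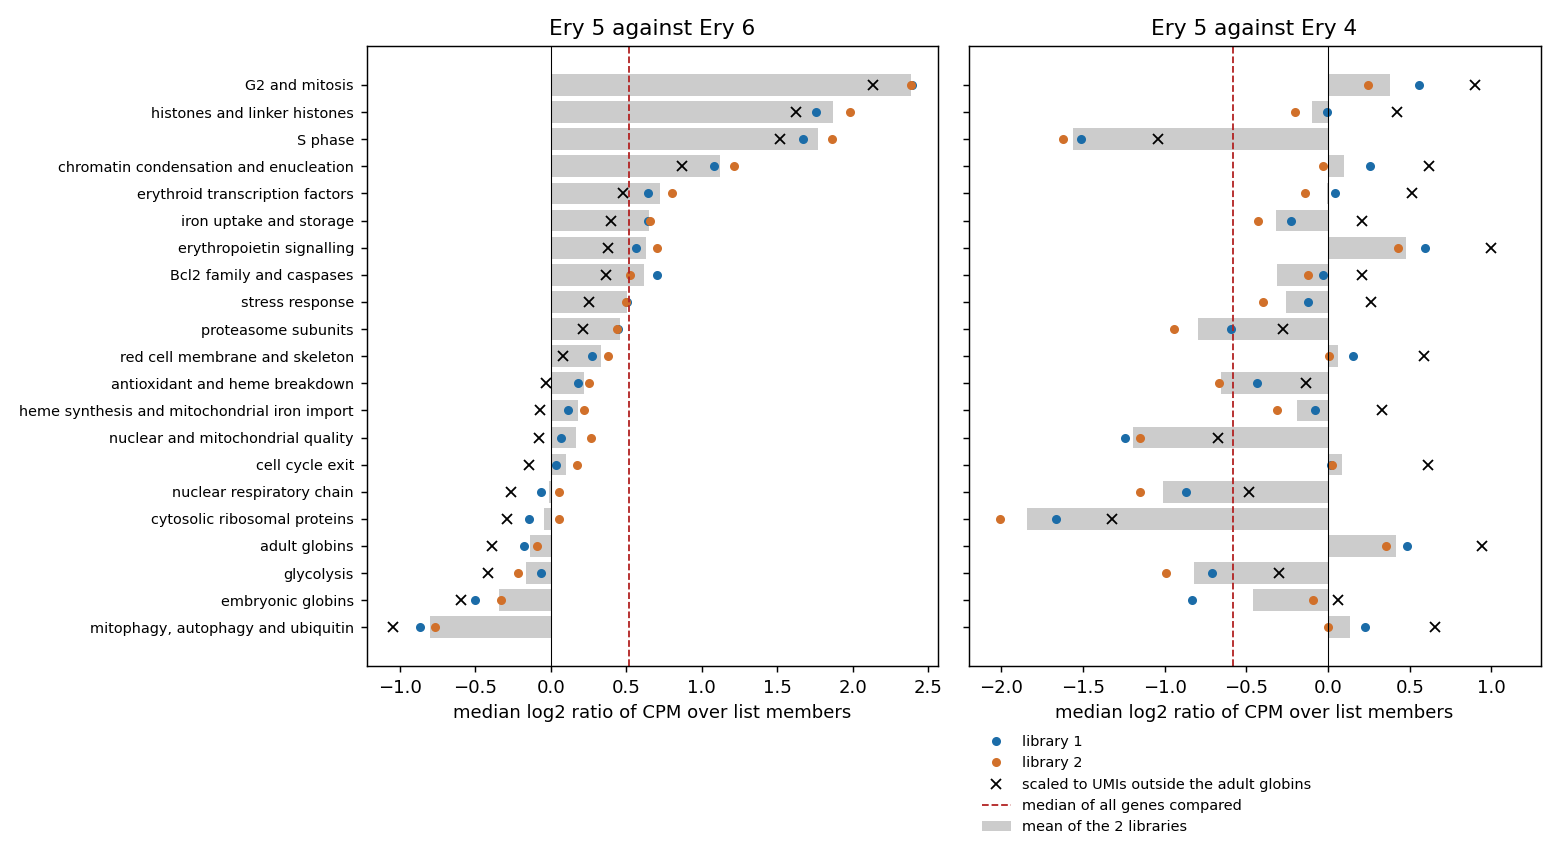
Median log2 ratio of CPM over the members of each list, Ery 5 against Ery 6 (left) and against Ery 4 (right). Bars are medians of the mean of the libraries, dots are each library, crosses are medians with CPM taken over UMIs outside the adult globins, and the dashed line is the median of all genes compared. G2 and mitosis lies above that line in both panels, S phase lies above it on the left and below it on the right, and ribosomal proteins lie below it in both.

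The contrast with Ery 6 was repeated in cells within a shared band of globin share, the overlap of the central bands of both subclusters. In bands of 47.2% to 55.5% (library 1) and 69.1% to 77.6% (library 2) there were 338 and 432 Ery 5 cells and 382 and 394 Ery 6 cells. Within them the median share was 51.0% and 73.0% in Ery 5 and still higher in Ery 6, at 52.3% and 74.5%. Between these cells 847 genes were higher and 310 lower in Ery 5, and 825 and 193 of these were also called among all cells. The median log2 ratio was 2.08 for G2 and mitosis, 1.43 for S phase and -0.38 for ribosomal proteins. The higher level of cell cycle genes in Ery 5 was thus also present where the globin shares overlapped.

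Ery 4 has less adult globin than Ery 5 and more of the other transcripts. Of 3761 genes compared, 51 (1.36% of them) were higher in Ery 5 than in Ery 4 and 1464 (38.9%) lower, with a median log2 ratio of -0.58. Outside the adult globins the split was 456 higher (12.1%) and 553 lower (14.7%) and the median -0.058, so 45.2% of the calls lay on the higher side in place of 3.37%. Counts of list members are therefore given on both scales, and the contrast with Ery 4 and that with Ery 6 share the same Ery 5 cells. No comparison at matched globin share was made, since the central bands of Ery 4 and Ery 5, which leave out cells at either end, overlapped in too few cells. Outside these bands cells did overlap and were not compared. In library 2 the lowest Ery 5 cell was at 61.0% globin, while the Ery 4 band reached 67.0%.

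The genes that were lower in Ery 5 were led by ribosomal proteins. All 83 ribosomal protein genes compared were lower by CPM, beside 38.9% of all genes, with a median log2 ratio of -1.84, and 80 were lower outside the adult globins, with a median of -1.32. Rps2 was at 536 CPM (95% interval 509.9 to 563) in the first library and 597 (577 to 617) in the second in Ery 5 and 2214 and 2789.8 CPM in Ery 4, higher in Ery 4 by 4.13-fold (3.92 to 4.35) and 4.67-fold (4.51 to 4.84). Rpl12 ranked first among the named genes by the smaller of its ratios, at 129 and 94.9 CPM against 718 and 611, higher in Ery 4 by 5.57-fold (5.01 to 6.19) and 6.44-fold (5.90 to 7.03). Rps4x, Rps12, Rps18, Rps20 and Rpsa were also among the 12 named genes, for example Rpsa at 445 and 317 CPM against 1910.3 and 1574. Ribosomal protein genes have many processed copies in the genome, so reads may be shared with these. Of the transcripts of the mitochondrial genome, mt-Nd2, a complex I subunit, was at 155 and 104 CPM in Ery 5 and 896 and 519.8 CPM in Ery 4, and mt-Co1, a complex IV subunit, at 3521 and 1777 against 5349 and 2744. All 8 mitochondrial genes of the list were lower in Ery 5 by CPM, and 4 outside the adult globins. Ery 4 includes cluster 13, with 223 and 121 cells and a median mitochondrial share of 20.1% and 4.52%, and without it 7 of the 8 were lower by CPM and 3 outside the adult globins. Of 73 nuclear respiratory chain genes, 67 were lower by CPM and 21 outside the adult globins, with medians of -1.01 and -0.49. Paics, an enzyme of purine synthesis, was at 21.9 and 17.8 CPM against 108 and 75.4.

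S phase genes were lower in Ery 5 than in Ery 4, while G2 and mitosis genes were not. Of 29 S phase genes compared, 25 were lower and none higher by CPM, and 21 outside the adult globins, beside 38.9% and 14.7% of all genes lower, with a median log2 ratio of -1.56 and -1.04. Of the 25, 6 were under 10 CPM in Ery 5 in at least 1 library and were compared there only through Ery 4. Mcm3, a subunit of the replicative helicase, was at 25 CPM (95% interval 19.6 to 31.4) in the first library and 17.2 (14 to 21) in the second in Ery 5 and 112 and 82.1 CPM in Ery 4, higher in Ery 4 by 4.47-fold (3.52 to 5.75) and 4.76-fold (3.87 to 5.91). Rfc4, of the clamp loader, was at 25.7 and 14.2 CPM against 119 and 87.4, and Mcm5 at 25.7 and 20.5 against 115 and 86.8. The S phase genes within 1.5-fold of Ery 4 were Tyms, Rrm2, Prim1 and Pola1, for example Rrm2 at 1041 and 571 CPM against 1185 and 777. In the G2 and mitosis list 5 of 30 genes were higher by CPM (Ube2c, Nusap1, Kif23, Ect2 and Ndc80), beside 1.36% of all genes, and 28 outside the adult globins, beside 12.1%, and none was lower on either scale. The median log2 ratio was 0.38 by CPM and 0.90 outside the adult globins. Ube2c was at 1890.0 and 1087 CPM in Ery 4, so Ery 5 was higher by 2.26-fold (2.21 to 2.32) and 1.84-fold (1.79 to 1.88). Nusap1, a spindle protein, was at 665 and 337 CPM in Ery 5 against 341 and 211, and Ect2, which places the cleavage furrow, at 92.1 and 44.2 against 45.6 and 23.5. Birc5 (survivin), at 759.6 and 388 CPM against 668 and 412, had ratios on either side of 1 in the libraries, as had Top2a and Mki67.

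Of 11 cell cycle exit genes compared, 2 were higher in Ery 5 than in Ery 4 and 1 lower by CPM, and 4 and 1 outside the adult globins, beside 1.36% and 12.1% of all genes higher. Cdkn2d was at 1132 and 541 CPM in Ery 5 and 495 and 280.4 CPM in Ery 4, a ratio of 2.29-fold (2.19 to 2.40) and 1.93-fold (1.84 to 2.03). Ccng2, an atypical cyclin of quiescent cells and a member of the cell cycle exit list, was at 33.5 and 19.97 CPM against 8.30 and 4.07, a ratio of 4.04-fold (2.93 to 5.61) and 4.90-fold (3.47 to 7.03). It was under 10 CPM in Ery 4 and was compared only because it is higher in Ery 5, so the minimum fixed its direction. Fzr1 (Cdh1), which directs the anaphase-promoting complex after mitosis, was at 220.1 and 112 CPM against 122 and 72.7, a ratio of 1.81-fold (1.63 to 2.00) and 1.54-fold (1.39 to 1.70). Of 6 genes of erythropoietin signalling compared, 3 were higher and none lower by CPM, and 4 were higher outside the adult globins, against the same shares of all genes. Those higher by CPM were Pim1, a survival kinase (859 and 569 CPM against 488 and 341), Socs3, a feedback inhibitor (34.6 and 18.9 against 19.5 and 11.7), and Bcl2l1 (231 and 129 against 115 and 77.2), the last with ratios of 2.01-fold (1.82 to 2.23) and 1.66-fold (1.51 to 1.84). Bcl2l1 was thus at an intermediate level in Ery 5, above Ery 4 and below Ery 6 in both libraries. Fam214b ranked first among the named genes by the same rule, at 106 and 61.5 CPM against 53.3 and 30.8, or 2.00-fold (1.72 to 2.32) and 2.00-fold (1.72 to 2.32). Tinagl1, Runx1t1, Fam220a and Gpcpd1 were also named, with Runx1t1, a transcriptional corepressor, at 145 and 76.3 CPM against 74.3 and 45. Malat1, a nuclear noncoding RNA, was at 8382 and 4394 CPM in Ery 5, 4735 and 2847 in Ery 4 and 8306 and 4332 in Ery 6.

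Counts for the other lists changed with the scale, beside 38.9% of all genes lower by CPM and 12.1% higher and 14.7% lower outside the adult globins. None of 25 membrane and skeleton genes was called by CPM, and 9 were higher outside the adult globins, with medians of 0.063 and 0.58. Of 14 heme synthesis genes, 2 were lower by CPM, Iscu and Tmem14c, the porphyrinogen importer, which was at 441 and 272 CPM in Ery 5 against 1792 and 1319 in Ery 4 and 397 and 218 in Ery 6. Outside the adult globins 3 of the 14 were higher and 1 lower. Of 13 glycolysis genes 8 were lower by CPM, 1 of them compared only through Ery 4 in at least 1 library, and 3 were higher and 2 lower outside the adult globins, with Gapdh at 259 and 179 CPM against 680.1 and 572. Of 34 proteasome subunits 18 were lower by CPM, and 1 was higher and 2 lower outside the adult globins. Of 21 antioxidant and heme breakdown genes 9 were lower by CPM, 2 of them compared only through Ery 4 in at least 1 library, and 4 were higher and 1 lower outside the adult globins. Of 21 mitophagy, autophagy and ubiquitin genes 1 was higher by CPM and 1 lower, the latter compared only through Ery 4 in at least 1 library, and 10 were higher outside the adult globins. Of 17 chromatin condensation and enucleation genes 2 were lower on either scale, both compared only through Ery 4 in at least 1 library, and 9 were higher outside the adult globins alone. Ccnd3, the D-type cyclin that sets the number of erythroid divisions, was lower, at 450.2 and 282 CPM against 952 and 682, or by 2.12-fold (1.99 to 2.24) and 2.42-fold (2.29 to 2.55). For heme synthesis, iron uptake and storage, erythroid transcription factors, histones, stress response, embryonic globins and the Bcl2 family, the sign of the list median changed between the scales, so no direction is given for these lists. Over genes, the profile of Ery 5 was nearer to Ery 4 (Pearson r of log2(CPM + 1) 0.964 and 0.965) than to Ery 6 (0.925 and 0.930) or Ery 3 (0.866 and 0.860), across 6956 and 6644 genes, which are not independent and share their library.

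Ery 5 was not uniform, and its component clusters 2 and 17 differed in cell cycle genes. Of 3050 genes compared, 37 (1.21%) were higher in cluster 17 than in cluster 2 and 486 (15.9%) lower, and outside the adult globins 89 (2.92%) were higher and 250 (8.2%) lower. The median log2 ratio was -0.31, or -0.11 outside the adult globins. Cluster 17 held 53.5% and 76.5% adult globin against 49.4% and 71.4% in cluster 2. G2 and mitosis genes took 3.84% and 3.72% of its other UMIs against 2.78% and 2.47%, S phase genes 0.387% and 0.378% against 0.574% and 0.620%, and ribosomal protein genes 4.62% and 5.31% against 6.64% and 8.72%. Of 25 S phase genes compared 20 were lower in cluster 17 by CPM and 17 outside the adult globins, with median log2 ratios of -1.47 and -1.27. Of the 20, 8 were under 10 CPM in cluster 17 in at least 1 library and were compared there only through cluster 2. Of 82 ribosomal protein genes 49 were lower by CPM and 24 outside the adult globins, with medians of -0.81 and -0.61. In the G2 and mitosis list 5 of 30 genes were higher outside the adult globins and 1 by CPM, Cenpa, the centromeric histone H3 variant, at 653 and 342 CPM in cluster 17 and 421 and 219 CPM in cluster 2. Pcna was at 42.4 and 13 CPM in cluster 17 and 122 and 78.6 CPM in cluster 2, higher in cluster 2 by 2.89-fold (1.98 to 4.36) and 6.06-fold (3.94 to 9.81). Lig1, the ligase of Okazaki fragments, was at 35.3 and 18.3 CPM against 95.3 and 81.7, and Mcm2 at 28.3 and 15.9 against 69.6 and 51.9. Hat1, which acetylates new histone H4, was at 28.3 and 8.25 CPM against 73.2 and 50.2, and mt-Nd2 at 80.6 and 46.5 against 178 and 127.

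Some of the 12 genes named as lower in Ery 5 than in Ery 6 were higher in cluster 17 than in cluster 2. Xpo7 was at 120.2 and 50.7 CPM in cluster 17 and 40.7 and 14.2 CPM in cluster 2, a ratio of 2.96-fold (2.17 to 4.02) and 3.57-fold (2.54 to 5.07). Tmcc2 was at 673 and 336 CPM against 363 and 179, a ratio of 1.86-fold (1.65 to 2.08) and 1.88-fold (1.68 to 2.09). Bpgm was at 136 and 67.8 CPM against 89 and 35.3, and Slfn14 at 84.8 and 50.7 against 53.8 and 23.3. Of the 12 named genes that were lower in Ery 5 than in Ery 6, Xpo7, Tmcc2, Bpgm, Tbcel and Slfn14 were also among the 12 named as higher in cluster 17. In cluster 17 all of these stayed under Ery 6, where for example Tmcc2 was at 3051 and 1645 CPM. Other named genes were Ier3, an immediate early gene (157 and 77.2 CPM against 79 and 36.8), Glul, glutamine synthetase (139 and 73.7 against 90.8 and 49), and Mkrn1, an ubiquitin ligase (745 and 399 against 483 and 227).

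The same trend was seen when the cells of Ery 5 were placed in 4 groups of rising adult globin share within each library, a description in which the globins also set the order. The median share was 45.5% in the lowest and 55.2% in the highest group of library 1, and 68.4% and 77% in library 2. G2 and mitosis genes took 2.79%, 2.75%, 3.14% and 3.45% of the other UMIs from the lowest to the highest group in library 1, and 2.36%, 2.67%, 2.73% and 3.51% in library 2. Ribosomal protein genes took 6.67% in the lowest and 5.32% in the highest group of library 1, and 9.65% and 5.86% in library 2. Cluster 17 cells made up 5.60% (2.28 to 11.2) of the lowest and 54.8% (45.7 to 63.8) of the highest group in library 1, and 0.676% and 74.1% in library 2. The median number of genes per cell was 1250 in the lowest and 1088 in the highest group of library 1, and 1179 and 1022 in library 2, with no thinning.

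Ordered by S phase share in place of globin share, the cells of Ery 5 differed in G2 and mitosis transcripts as well. In the 4 groups from the lowest to the highest S phase share, the S phase list took 0.153%, 0.314%, 0.554% and 1.18% of the other UMIs in library 1. The G2 and mitosis list took 3.50%, 3.48%, 2.93% and 2.05% in library 1, and 3.26%, 3.33%, 2.75% and 1.65% in library 2. The cells with the most S phase transcripts thus had the fewest of G2 and mitosis in both libraries, and these were still above the mean of Ery 6. The groups also differed in their clusters. Cluster 17 cells made up 39.2% of the lowest and 11.3% of the highest group in library 1, and 37.2% and 8.16% in library 2. Histone genes went with the S phase list, at 2.80% in the lowest and 3.41% in the highest group of library 1, and 2.46% and 2.93% in library 2. Median UMIs per cell were 6133 and 5276 in these groups of library 1, and 10582 and 8850 in library 2. This ordering was chosen after the values had been seen.

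Between the libraries, most genes of Ery 5 differed by CPM and few did outside the adult globins. Of 3851 genes compared, 3346 (86.9%) were higher in library 1 and 13 (0.338%) in library 2, with a median log2 ratio of 0.91. Outside the adult globins 173 were higher in library 1 and 108 in library 2, and the median was 0.033. The largest ratio was that of Hist1h2ap, a histone H2A gene, at 1343 CPM in the first and 24.4 in the second library. Hist1h2ap was also at 269 and 8.67 CPM in free RNA, so the gap is not confined to Ery 5. The largest ratio in the opposite direction was that of Hba-a2, at 55997 CPM in the first and 109776 in the second library. The ratios between subclusters given above were all taken within a library.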

How the data were processed

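The deposited matrices hold UMI counts per gene and barcode, which the authors made with Cell Ranger 2.1.1 on mm10 after bcl2fastq 2, per the submitters' processing notes. The matrix header of library 1 names version 3.0.0, so whether both libraries went through the same version is not known. Cell names and clusters came from the deposited cell table, which the authors made with Seurat 3.2.0 from both libraries integrated. Kept cells numbered 5480 and 5057, with 51969226 and 62738015 UMIs over 27998 genes, and Ery 5 held 2921121 and 5857868. Counts were summed per subcluster and library and divided by total UMIs (CPM) or by UMIs outside the 4 adult globins. No model was fitted, since both libraries come from 1 liver. Calls used a ratio of 1.5 in both libraries and 10 CPM in either subcluster. Named genes were the 12 per direction that ranked first by the smaller of the absolute log2 ratios of the libraries, among called genes whose ratio intervals excluded 1 and that had at least 50 CPM in either subcluster of each library. In each list the member with the most CPM in Ery 5 and those with the largest mean log2 ratios were named, and further members were chosen for their role after their values were seen. Some genes are not reported here. The cells, lists, motifs and comparisons were chosen with earlier results of these data known, and TTTGAA, the cluster 17 contrast and the S phase ordering were added after values were seen. Setd8, Fam132b and the Diaph genes were matched under the symbols the files use. Thinning used 2300 UMIs and seed 1, and the comparison step was tested on simulated counts. Gene positions are from GENCODE vM21 (GRCm38), and 51 of 65 named genes had a RefSeq promoter window. The scripts ran in Python 3.11.15 with scipy 1.17.1 for intervals, numpy 2.4.6 and pandas 2.3.3 for sums, and matplotlib 3.10.9 for plots. Alternatives comprised other scalings, minima, folds, cell filters, free RNA subtraction, matched cells and single libraries.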

Additional observations from a re-analysis of the deposited data

Results flagged for a closer look

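Barcodes that were not kept as cells were not used in any comparison, and a few of them matched the Ery 5 profile best. Of 221 such barcodes with at least 1000 UMIs in library 1, 11 matched the Ery 5 profile best (4.98%, 2.51 to 8.73), and of 3461 in library 2, 202 did (5.84%, 5.08 to 6.67). The profile of free RNA was among the candidates. Of the same barcodes, 89 and 703 matched Ery 4 best, 42 and 234 Ery 6, and 45 and 1006 free RNA. Kept Ery 5 cells thinned to the same depths were returned to Ery 5 in 96.2% and 95.3% of cases. Thinned Ery 4 and Ery 6 cells were placed in Ery 5 in 9.47% and 9.46%. That rate is over Ery 4 and Ery 6 cells alone, so it cannot be set against a share of all barcodes. In the barcodes best matched by Ery 5, the G2 and mitosis list took 1.72% and 2.11% of the UMIs outside the adult globins. This was under the level of kept Ery 5 cells and above that of free RNA. At a minimum of 2000 UMIs, 3 barcodes of library 1 and 85 of library 2 matched Ery 5 best. Whether they are cells was not tested.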

How the results depend on the processing

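No result with a call changed direction among 860 alternative values of 101 results, of which 588 stayed within the spread or within 1.5 times a count and 272 moved. Some list medians near 0 changed sign with the scale. Against Ery 6 (1255 higher, 211 lower), the counts were 3334 and 1121 with no minimum, 327 and 103 at 50 CPM, and 784 and 110 at a fold of 2. The lower count was 335 outside the adult globins and 137 for mean UMIs per cell. Leaving out either library gave 1443 to 1881 higher and 232 to 377 lower. Against Ery 4 (51 higher, 1464 lower), they were 456 and 553 outside the adult globins, 275 and 4300 with no minimum, 16 and 534 at 50 CPM, and 7 and 626 at a fold of 2, and 58 to 199 and 1916 to 2168 with either library left out. Without cluster 13 in Ery 4, an alternative added after seeing the data, they were 53 and 1495. List medians against Ery 6 were 2.13 (outside the adult globins) and 2.08 (matched globin share) for G2 and mitosis, 1.52 and 1.43 for S phase, and -0.29 and -0.38 for ribosomal proteins, and with either library left out 2.39 to 2.40, 1.67 to 1.87 and -0.15 to 0.054. Against Ery 4 the medians outside the adult globins were 0.90, -1.04 and -1.32. The Ery 5 share of kept cells was 11.1% at a common minimum of UMIs, 11.8% of Ery 1 to Ery 6 cells, and 9.07% to 11.7% by library. The median number of genes, 512.8 at 2300 UMIs as the mean of the libraries, was 1131 with no thinning and 836.5 at 4600 UMIs. Between libraries, 173 and 108 genes were called outside the adult globins. Barcodes like Ery 5 numbered 88 at 2000 UMIs in place of 213, and 11 to 202 by library. Matching on globin share was not done for Ery 4. The overlap of the central globin bands held 3 Ery 5 and 7 Ery 4 cells of library 1 and none of library 2. Cells that overlapped outside these bands were not compared. No paired analysis was possible because no result came from a test and the libraries are technical replicates of 1 liver. Genes under 10 CPM in both subclusters of a library were not compared.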
